A study of Homo sapiens with 6 samples.

Results

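The genes described here are 8 targets of the transcriptional co-activator YAP whose products act at the cell surface or outside the cell: AXL, F3, NT5E, CRIM1, TGFB2, IGFBP3, FJX1 and CCDC80. They were chosen by name, out of 38336 protein-coding and lncRNA genes in the gene table, and all 8 were found there. For each gene, peaks of accessible chromatin were collected over the gene span plus 20 kb on either side (GRCh38), called the gene window below. The peaks come from ATAC-seq, in which a transposase inserts sequencing adapters into open DNA. The samples were NCI-H1703 cells, an established line from lung squamous cell carcinoma. In 3 libraries the long non-coding RNA DLGAP1-AS2 had been silenced and 3 libraries were controls, with 10000 to 50000 cells per library. The titles call the silenced libraries ASO and the controls NC, abbreviations that the labels do not spell out. The labels state no time or dose for the silencing, and they do not say whether libraries of a group came from separate cultures, so the p-values below measure only the spread between these libraries, which may be technical.

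YAP has no DNA-binding domain of its own. It enters the nucleus when the kinases of the Hippo pathway are inactive, and it binds DNA through TEAD factors, often at distal elements where AP-1 factors bind as well. Genes that respond to YAP include matrix-associated growth regulators, cytoskeletal genes and a set of receptors and secreted factors through which cells signal to their surroundings, to which the 8 genes belong.

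Start windows of 300 bases (250 before to 50 after the annotated start) were taken from RefSeq (GRCh38.p14), and 7 of the 8 genes matched, all but CRIM1. AXL has a pair of such windows. Of these 8 windows, 5 are shown because they span the range of what was seen at the starts: F3 and TGFB2, with weak or no peaks, NT5E, with the tallest start peak, IGFBP3, the only start whose heights did not overlap between the groups, and CCDC80, an open start of low GC content. Each runs 5′ to 3′ on the gene's strand. Capitals mark matches to the core TEAD motif (GGAATG, or CATTCC on the other strand) or to the AP-1 motif (TGANTCA).
F3 chr1:94541710-94542009, minus strand: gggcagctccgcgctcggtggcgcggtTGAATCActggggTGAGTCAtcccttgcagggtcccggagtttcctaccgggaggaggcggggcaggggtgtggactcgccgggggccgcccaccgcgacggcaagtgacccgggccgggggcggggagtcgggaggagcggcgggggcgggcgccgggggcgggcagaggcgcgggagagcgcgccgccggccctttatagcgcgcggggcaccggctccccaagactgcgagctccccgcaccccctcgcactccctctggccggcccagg
TGFB2 chr1:218345086-218345385, plus strand: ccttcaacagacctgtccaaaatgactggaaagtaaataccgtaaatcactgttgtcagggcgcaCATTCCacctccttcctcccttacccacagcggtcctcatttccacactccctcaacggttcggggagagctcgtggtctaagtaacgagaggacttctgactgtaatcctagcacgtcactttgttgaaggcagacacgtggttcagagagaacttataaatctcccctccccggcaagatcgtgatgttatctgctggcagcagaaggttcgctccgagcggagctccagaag
NT5E chr6:85449833-85450132, plus strand: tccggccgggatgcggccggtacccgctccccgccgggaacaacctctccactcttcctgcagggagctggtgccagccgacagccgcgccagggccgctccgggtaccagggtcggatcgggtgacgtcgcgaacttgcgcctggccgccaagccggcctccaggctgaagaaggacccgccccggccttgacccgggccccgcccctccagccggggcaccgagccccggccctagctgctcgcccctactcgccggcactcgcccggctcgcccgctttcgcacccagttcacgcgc
IGFBP3 chr7:45921223-45921522, minus strand: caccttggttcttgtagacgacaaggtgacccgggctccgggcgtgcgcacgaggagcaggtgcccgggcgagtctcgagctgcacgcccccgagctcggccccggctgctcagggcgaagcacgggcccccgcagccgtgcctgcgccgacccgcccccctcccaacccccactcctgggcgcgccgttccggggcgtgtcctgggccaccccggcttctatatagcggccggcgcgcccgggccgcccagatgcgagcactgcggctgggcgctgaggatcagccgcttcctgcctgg
CCDC80 chr3:112641094-112641393, minus strand: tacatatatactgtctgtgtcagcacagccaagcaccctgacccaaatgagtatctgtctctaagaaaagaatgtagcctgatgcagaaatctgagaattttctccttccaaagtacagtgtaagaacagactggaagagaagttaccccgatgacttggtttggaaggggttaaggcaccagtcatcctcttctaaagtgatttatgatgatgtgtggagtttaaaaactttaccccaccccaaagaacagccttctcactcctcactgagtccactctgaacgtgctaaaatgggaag

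The F3 window held 2 AP-1 matches, TGAATCA and TGAGTCA, beginning at −223 and −210 bases relative to the annotated start. The TGFB2 window held 1 TEAD match, at −185 bases, and the second window of AXL held 1 as well, at −212 bases. The other 5 windows held neither motif. Searched on both strands, 14% of all 35116 start windows held the TEAD core and 7.71% the AP-1 motif. None of the 8 windows held both motifs, so an overlap between them was not possible. A peak overlapped the F3 matches in 2 libraries (silenced replicate 2 and control replicate 3), and no library had a peak over the TEAD matches of TGFB2 and AXL. GC content was 77.3% in the F3 window, 75.0% in NT5E, 74.7% in IGFBP3, 72.3% in FJX1, 51.7% in TGFB2 and 43.3% in CCDC80, against a median of 58.7% over all start windows.

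The lists held 91346 to 170882 peaks per library. The number of reads is not given, so depth is unknown. The background coverage implied by height and fold enrichment ran from 0.237 in silenced replicate 3 to 0.464 in control replicate 2, and these libraries stood apart from the other 4 (0.369 to 0.402). The height of a peak (the authors' pileup value) is not normalized between libraries, and its median over all peaks was 3 in silenced replicate 3, 8 in control replicate 2 and 4 in each of the others. The labelled lineage was checked by peaks centred at most 1 kb from either end of marker genes. Of 6 squamous markers, SOX2 was called in all 6 libraries, TP63 in 4, DSG3 in 2, KRT5 and PKP1 in 1 each and KRT6A in none. Of 4 adenocarcinoma and alveolar markers, NKX2-1, NAPSA and SFTPC were called in all 6 and SFTPB in 2. The 5 markers of immune and endothelial cells were called in at most 2 libraries each. By this measure 58.0% of all protein-coding genes were called in all 6. A peak near a gene end can belong to a neighbouring gene, which was not checked for the markers. A peak is accessibility, not expression.

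The 8 gene starts ranged from fully open to uncalled. Heights below are in the order of replicates 1, 2 and 3 of a group. Peaks overlapped the start window in all 6 libraries at NT5E, IGFBP3 and CCDC80, and at CRIM1 a peak lay over the lower end of the span in all 6. FJX1 had a start peak in 5 libraries, AXL in 3, F3 in 2 and TGFB2 in none. Thus 3 of the 8 start windows were called in all 6 libraries, against 36.3% of all start windows, and 2 were called in none (45.3% of all windows). Counting peaks centred at most 1 kb from either end of the span gave 5 of 8 genes called in all 6 libraries (58.0% of protein-coding genes). AXL entered that count only through a peak near its other end, which overlapped the start window of the neighbouring gene HNRNPUL1.

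**Figure D1:**
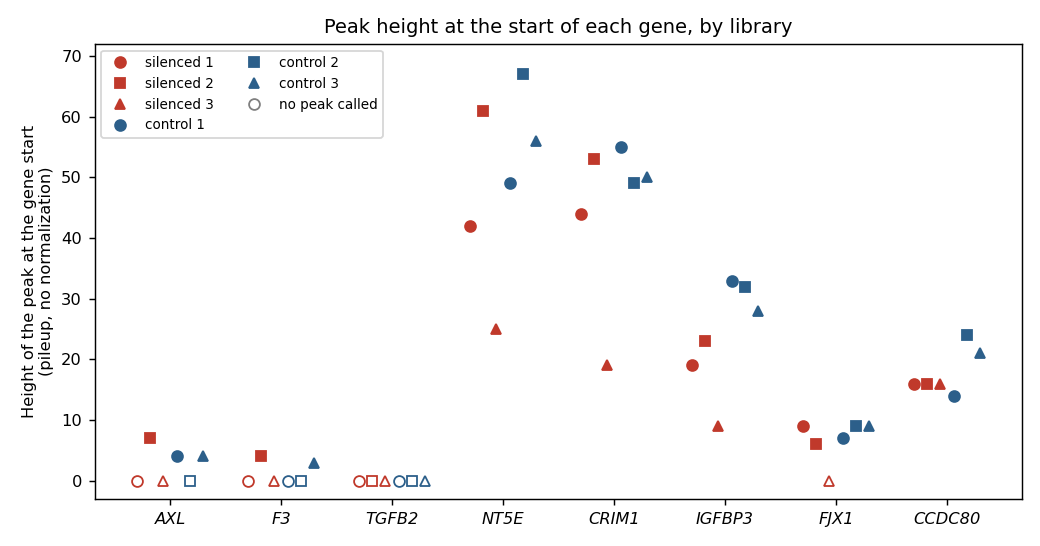
Peak height (pileup, vertical axis) at the start of each of the 8 genes (for CRIM1, the lower end of the span) in the 3 silenced (red) and 3 control (blue) libraries, with open symbols at 0 where no peak was called. NT5E and CRIM1 reach 67 and 55, TGFB2 has no peak in any library, and only at IGFBP3 do the silenced libraries (9 to 23) all lie below the control libraries (28 to 33).

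Surface proteins are described first. NT5E (CD73, the ectonucleotidase that makes adenosine from AMP) had the tallest start peak of the 8 genes. The NT5E start region (chr6:85449790-85450798) had heights of 42, 61 and 25 after silencing and of 49, 67 and 56 in the controls. The groups overlapped, and the low value was that of silenced replicate 3. Fold enrichment over the authors' background was 11.9, 13.5 and 10.7 in silenced and 10.8, 13.9 and 11.9 in control libraries. Inside the gene, 14.5 kb from the start, a second region (chr6:85464002-85465231) had heights of 35, 37 and 25 against 33, 31 and 33. Another, 33.2 kb from the start (chr6:85482892-85483596), had heights of 19, 17 and 15 against 20, 16 and 10. All 3 were called in every library, so NT5E had an open start and a pair of open sites in its body under both conditions.

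CRIM1, a transmembrane protein with cysteine-rich repeats that binds bone morphogenetic proteins, had by far the most peaks, in the longest window (235.0 kb). Each library had 31 to 40 peaks there, or 1.46 per 10 kb on average, against 0.511 to 1.22 per 10 kb in the other 7 windows. Of 70 regions, 13 were called in all 6 libraries, 11 of them within the CRIM1 span. The region at the lower end of the span (chr2:36355444-36355977), which also overlaps the lncRNA gene CRIM1-DT, had heights of 44, 53 and 19 in silenced and 55, 49 and 50 in control libraries. The strongest by fold enrichment lay in the gene body, 151.75 kb from that end (chr2:36507343-36507721). Its fold enrichment was 14.6, 14.2 and 12.4 in silenced and 15.3, 17.0 and 14.5 in control libraries, the highest median fold (14.6) of all 28 shared regions in the 8 windows. The groups overlapped at both sites.

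Peaks at CRIM1 also stood on a raised background. Dividing height plus 1 by fold enrichment and subtracting 1 gives the background behind a peak. In the CRIM1 window its median was 5.07 to 6.87 times the lowest background of the same library. That placed CRIM1 at the 86.0 to 92.3 percentile of protein-coding gene windows, whose medians were 1.66 to 2.59. The start regions of NT5E and CRIM1 had like median heights, 52.5 and 49.5, but median folds of 11.9 and 7.54. The raised background was present in all 6 libraries, and what raised it was not tested.

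AXL, a receptor tyrosine kinase for the ligand GAS6, had little accessible chromatin of its own. A peak over its first start window was called in 3 libraries, with heights of 7 in silenced replicate 2, 4 in control replicate 1 and 4 in control replicate 3. The authors' FDR for these was 0.000178, 0.0807 and 0.101. No library had a peak over its second start window. The 3 regions of the AXL window that were called in all 6 libraries all lay outside AXL. Of these, 2 overlapped start windows of HNRNPUL1, including the tallest (chr19:41263486-41264455), with heights of 62, 65 and 34 in silenced and 64, 71 and 69 in control libraries. The other (chr19:41204289-41204652) lay in CYP2S1, with heights of 19, 13 and 17 against 9, 21 and 15. Within AXL the most often called region (chr19:41249831-41250518), 30.95 kb from the start, was found in 4 libraries with heights of 2 to 6.

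F3 encodes tissue factor, the membrane receptor for factor VII that starts blood coagulation. A peak over its start was called with a height of 4 in silenced replicate 2 and 3 in control replicate 3, and not in the other 4 libraries. The same region overlaps the start window of the lncRNA gene LOC124904223. Inside the gene, a region 9.48 kb from the start (chr1:94532136-94532428) was called in 4 libraries. Its heights were 7 in silenced replicate 1, 5 in silenced replicate 3, 7 in control replicate 2 and 4 in control replicate 3. The only region of the F3 window called in all 6 libraries (chr1:94514062-94514607) lay in the neighbouring gene ABCD3. Its heights were 6, 10 and 5 in silenced and 12, 10 and 2 in control libraries, so both the highest and the lowest value were controls.

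**Figure D2:**
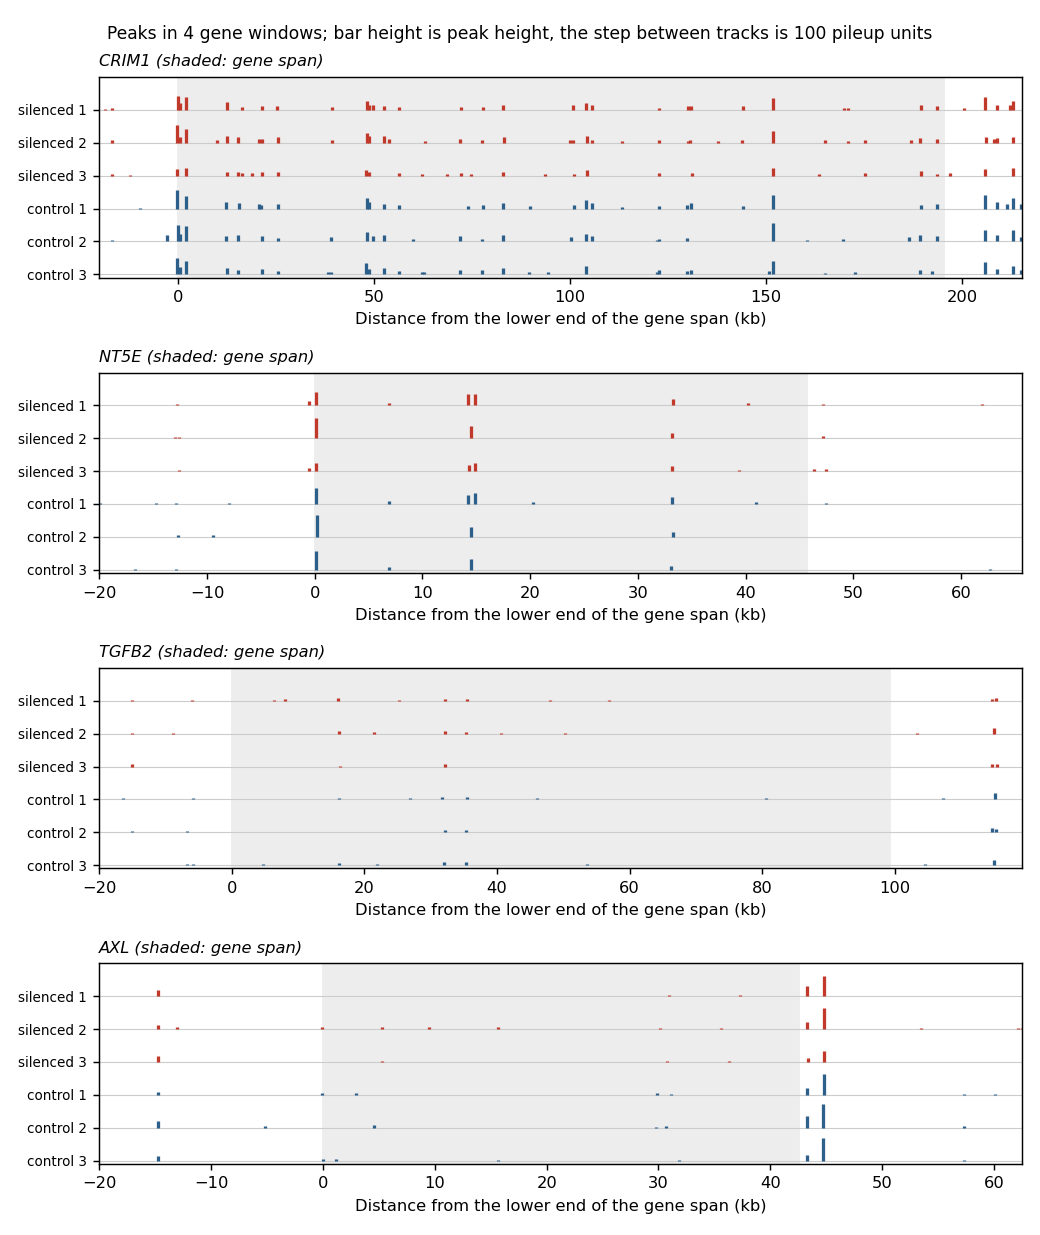
Peaks in the windows of CRIM1, NT5E, TGFB2 and AXL, 1 track per library (silenced red, control blue), with the distance from the lower end of the gene span in kb on the horizontal axis and bar height proportional to peak height. CRIM1 carries 31 to 40 peaks in each library, NT5E a start peak and 2 recurring sites in its body, TGFB2 no peak above a height of 19, and the tall peaks of the AXL window lie beyond the shaded span.

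Among the secreted products, TGFB2 (a transforming growth factor beta ligand) had no called peak over its start in any library. The nearest region called in 3 or more libraries lay upstream, at −5.98 kb (chr1:218339136-218339574), with heights of 3 to 4. In the gene body, a region 32.0 kb from the start (chr1:218376933-218377748) was called in every library, with heights of 6, 8 and 8 in silenced and 7, 7 and 8 in control libraries. The strongest region lay outside any gene span, 115.05 kb from the start and beyond the far end of the gene (chr1:218459809-218460966). Its heights were 10, 18 and 9 in silenced and 19, 14 and 15 in control libraries, which overlap.

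IGFBP3, a secreted carrier that binds insulin-like growth factors, had a shared region at its start (chr7:45920692-45921432) and another in the gene body 3.26 kb away (chr7:45917627-45917976). Start heights were 19, 23 and 9 after silencing and 33, 32 and 28 in the controls. All silenced libraries were thus lower than all control libraries. Fold enrichment gave the same order, 5.65, 6.22 and 4.90 in silenced and 8.67, 7.33 and 8.10 in control libraries. In the gene body region the heights were 16, 24 and 10 in silenced and 15, 18 and 15 in control libraries, which overlap.

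To compare libraries of unknown depth, the regions called in all 6 libraries were ranked by fold enrichment within each library, and the rank is given as a percentile among these 37284 regions, with 100 as the strongest. The IGFBP3 start ranked at the 27.3, 29.5 and 31.3 percentile in silenced and at 55.2, 40.6 and 49.1 in control libraries, or 29.4 ± 2.01 (SD, n = 3) against 48.3 ± 7.31 (SD, n = 3). A two-sided exact permutation test gave p = 0.1, the smallest that 3 libraries against 3 can give. In the limma fit across all 37284 regions, on normal scores of the ranks, the difference (silenced minus control) was −0.50 with an SE of 0.315, and the Benjamini-Hochberg adjusted p was 0.963. The gene body region went the other way, at the 22.8, 39.8 and 39.6 percentile after silencing and at 9.4, 11.0 and 13.9 in the controls. Its score difference was 0.786 with an SE of 0.384 (exact permutation p = 0.1; limma adjusted p = 0.963), and 0.243 when regions were ranked by height. Neither difference passed the test, and groups that do not overlap were found at 4.78% of all shared regions for lower and 5.39% for higher ranks in silenced cells.

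Within a library, a depth factor common to both heights cancels from the ratio of the IGFBP3 start height to the gene body height. The ratio can still vary with depth, because heights are maxima with no background subtracted. They were as low as 9 and 10 in silenced replicate 3. This ratio was singled out after the heights were seen and is given with no test. It was 1.19, 0.958 and 0.90 in silenced and 2.2, 1.78 and 1.87 in control libraries, with means of 1.02 ± 0.153 (SD, n = 3) and 1.95 ± 0.221 (SD, n = 3). The groups did not overlap, as was the case for 8.72% of the 3314 neighbouring pairs of shared regions at most 5 kb apart.

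**Figure D3:**
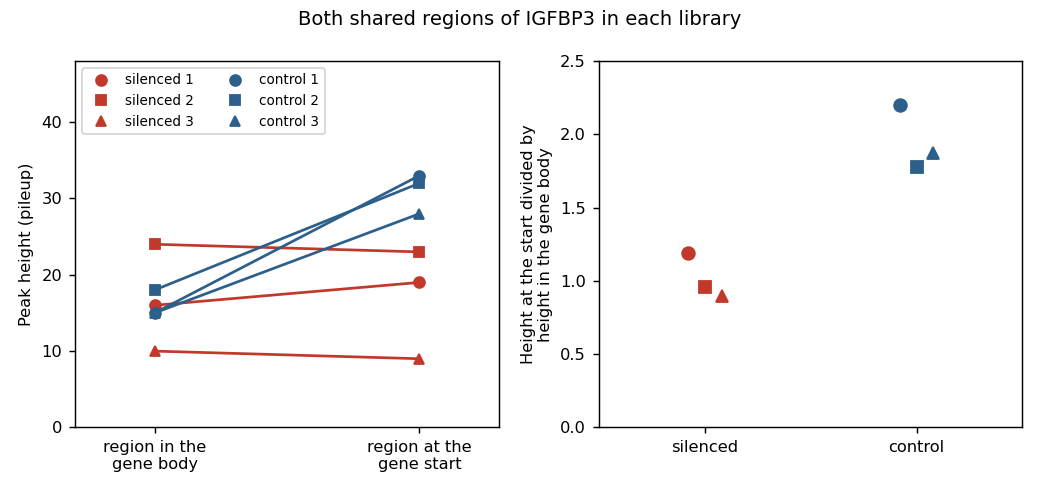
Left, peak height (pileup) at the gene body region and the start region of IGFBP3, with the values of each library joined by a line (silenced red, control blue). Right, the ratio of start to gene body height, which lies between 0.90 and 1.19 in silenced and between 1.78 and 2.2 in control libraries.

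FJX1 is the human relative of four-jointed, a Drosophila kinase of the secretory pathway that modifies the cadherins Fat and Dachsous upstream of Hippo signalling. Its window held 4 regions and none was called in all 6 libraries. The start region (chr11:35617811-35618439) had a height of 9 in silenced replicate 1 and 6 in silenced replicate 2, no call in silenced replicate 3, and heights of 7, 9 and 9 in the controls. A second region within the gene, 0.89 kb from the start (chr11:35618834-35619868), had a height of 5 in silenced replicate 2, no call in the other silenced libraries, and heights of 8, 8 and 9 in the controls. Both sites were thus called in every control library, the start region in 2 silenced libraries and the region within the gene in 1.

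CCDC80, a secreted protein of the extracellular matrix, had an open start despite the lowest GC content of the 8 start windows (43.3%, with 2 CpG dinucleotides). The start region (chr3:112640548-112641358) had a height of 16 in each silenced library and of 14, 24 and 21 in the controls. A taller region lay upstream, at −1.97 kb (chr3:112642923-112643300), with heights of 25, 33 and 15 in silenced and 30, 36 and 30 in control libraries. The groups overlapped in height at both regions, and upstream the low value was again silenced replicate 3.

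The first comparison across the gene set asked whether shared sites near these genes changed rank after silencing. The 8 windows held 187 regions, of which 28 (15.0%) were called in all 6 libraries and 103 (55.1%) in a single library, against 7.35% and 74.1% of all 507440 regions. Of the 28 shared regions, 18 lay in the span of their gene, 6 in a neighbouring gene and 4 in no span. In the limma fit 0 of the 28 passed an adjusted p of 0.05, as did 0% of all 37284 shared regions (lowest adjusted p 0.963). At an unadjusted p under 0.05 there was 1 of 28, against 4.68% of all shared regions. This was a CRIM1 region 25.5 kb from the lower end of the span (chr2:36381010-36381556), with fold enrichments of 4.24, 4.69 and 4.87 in silenced and 4.05, 2.66 and 3.33 in control libraries. Its score differed by 1.23 with an SE of 0.502 (limma adjusted p = 0.963; exact permutation p = 0.1). The difference was 0.723 without control replicate 2, the lowest when 1 library at a time was left out. Ranked by height it was 0.52. The unadjusted limma p of this region was above 0.05 when ranked by height and without control replicate 2 or silenced replicate 3. Ranked by height, the 1 region under 0.05 was instead the IGFBP3 start (limma unadjusted p = 0.0155, adjusted p = 0.971).

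At the starts the score differences were 0.116 with an SE of 0.214 at NT5E and 0.297 with an SE of 0.364 at CCDC80, and 0.071 with an SE of 0.298 at the lower end of CRIM1. The NT5E and CRIM1 values turned negative when regions were ranked by height (−0.142 and −0.161). In the NT5E gene body the difference was 0.435 with an SE of 0.304 at the region 14.5 kb from the start. There the silenced ranks were all above the control ranks, as at 5.39% of all shared regions. It was 0.505 with an SE of 0.335 at the region 33.2 kb from the start, and 0.24 to 0.77 when 1 library was left out. At the shared region of the F3 window the difference was 0.531 with an SE of 0.626, and without control replicate 3 it was −0.514. At the TGFB2 gene body region it was 0.569 with an SE of 0.469, and 0.183 to 0.954 when 1 library was left out (lowest without silenced replicate 3). At the CYP2S1 region of the AXL window it was 0.494 with an SE of 0.305, and 0.164 to 0.72 when 1 library was left out (lowest without control replicate 1). None of these passed (limma adjusted p 0.963 to 0.986).

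Mean scores were higher in silenced cells at 21 of the 28 regions and lower at 7, with a median difference of 0.187, against 18960 of 37284 and a median of 0.007 over all shared regions. CRIM1 contributed 9 of the 21, NT5E 4, AXL 3 and CCDC80 2. Sites of 1 window share their locus and are not independent. Without silenced replicate 3, the count was 18 of 34 with a median difference of 0.046. With an FDR of at most 1e-05 it was 8 of 16, and ranked by height it was 17 of 28 with a median of 0.026. The groups did not overlap in rank at 5 of the 28 regions with higher ranks in silenced cells (5.39% of all shared regions) and at 1 with lower ranks (4.78%).

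**Figure D4:**
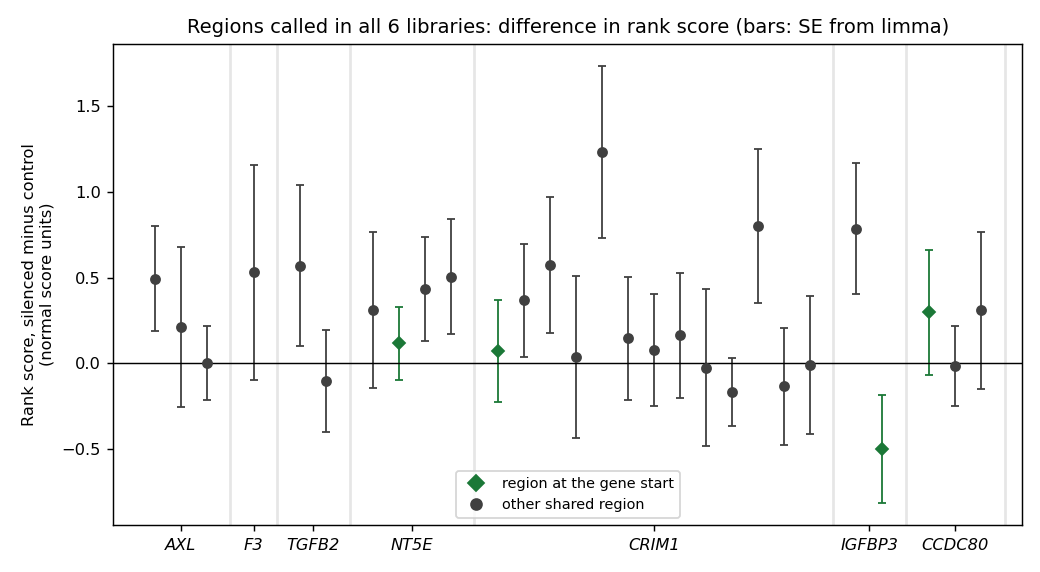
Difference in rank score (silenced minus control, normal score units) at the 28 regions called in all 6 libraries, by gene, with bars for the limma SE and diamonds for regions at a gene start. Points above 0 number 21 of 28, the highest is the CRIM1 region at 1.23 and the lowest the IGFBP3 start at −0.50.

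The second comparison asked for sites called in one group alone. No region of the 8 windows was called in all 3 silenced and no control library (0.130% of all regions), and 3 were called in all 3 control and no silenced library (0.200% of all regions). None of the 3 lay within a member gene. The region with the tallest peaks, at the far edge of the CRIM1 window within FEZ2 (chr2:36570535-36570778), had heights of 13, 14 and 12, with the authors' FDR at 6.39e-04, 8.71e-04 and 0.00598. The region beside F3 (chr1:94527381-94527763) had heights of 2, 5 and 4, with the authors' FDR at 0.541, 0.0329 and 0.0144. That in HNRNPUL1 in the AXL window (chr19:41276449-41276667) had heights of 2, 5 and 2, with the FDR at 0.541, 0.00218 and 0.516. At an FDR of at most 1e-05 the count was 0, at a height of at least 4 it was 1, with a flank of 5 kb it was 1 and without control replicate 1 it was 5. A single region called in 3 libraries against 0 has no test of its own.

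The third comparison used the length covered by peaks in each gene window. The 8 windows together held 76, 87 and 67 peaks after silencing and 88, 64 and 85 in the controls. On average there were 76.7 ± 10.0 peaks (SD, n = 3) and 79.0 ± 13.1 peaks (SD, n = 3), and the spread between libraries exceeded the difference. The sign of the difference changed without silenced replicate 3 (2.5), control replicate 1 (2.17) or control replicate 3 (0.667). Covered length was 25.3 ± 5.17 kb (SD, n = 3) in silenced and 27.3 ± 4.02 kb (SD, n = 3) in control libraries, and this difference changed sign without silenced replicate 3 (0.719). Per gene, the covered length was compared on the log2(bp + 200) scale after quantile normalization, with limma over 36225 genes. None of the 8 genes passed an adjusted p of 0.05 (0% of all genes), and 1 had an unadjusted p under 0.05 (3.67% of all genes).

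That gene was FJX1. Peaks covered 545, 710 and 223 bp of its window after silencing and 1233, 907 and 1106 bp in the controls. All control lengths were above all silenced lengths. The lengths came from only 1, 2 and 1 peaks in silenced and 4, 2 and 3 in control libraries. In silenced replicate 3 the peak had a height of 4 and lay outside the gene, 11.69 kb from the start. The log2 difference was −0.92 with an SE of 0.37 (limma adjusted p = 0.999). For F3 the values were 769, 766 and 658 bp in silenced and 1129, 700 and 2172 bp in control libraries, which overlap, and the normalized log2 difference was −0.68 with an SE of 0.36 (limma adjusted p = 0.999). The FJX1 difference was −0.48 with a pseudocount of 1000 bp and −0.616 with a flank of 50 kb. The F3 difference was −0.096 with lists of equal size and turned to 0.061 with peaks under a height of 4 left out. Groups that do not overlap after normalization, with silenced lower, were found for FJX1 and F3 and for 4.87% of all genes, and with silenced higher for 0 of the 8 and 3.85% of all genes. The other 6 genes had log2 differences between −0.19 (IGFBP3) and 0.07 (CCDC80).

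**Figure D5:**
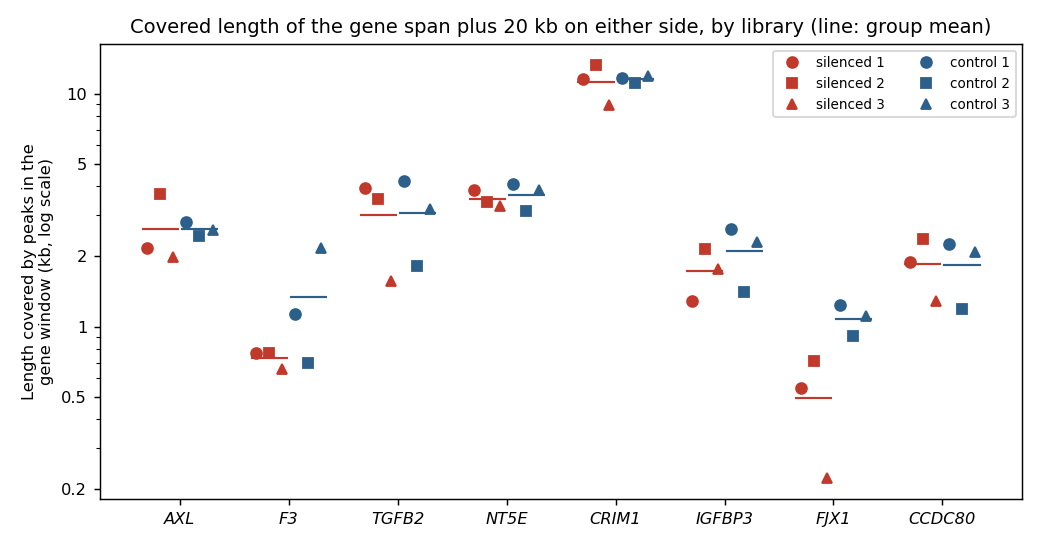
Length covered by peaks (kb, log scale) in the window of each gene, by library (silenced red, control blue; horizontal lines are group means). At FJX1 the silenced libraries (223 to 710 bp) all lie below the control libraries (907 to 1233 bp), and the groups overlap at the other 7 genes.

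The other 14 genes of the same YAP target signature were examined for background. All 14 had a peak centred at most 1 kb from an end of the span in every library. The same held for 5 of the 8 genes described here and 58.0% of protein-coding genes. Whether the lists differ was not tested. RefSeq start windows were found for 9 of the 14, and 7 of these genes had a start window called in all 6 libraries. Of their 10 start windows 7 were called in all 6, against 36.3% of all start windows. ANKRD1 and MYOF had none called in all 6, although both are among the 14 counted by gene ends. In the covered length fit 0 of the 14 passed the test in either direction. Their median log2 difference was −0.10, against −0.01 for the 8 genes and −0.01 for all genes tested. In the rank fit, mean scores were higher in silenced cells at 40 of their 64 shared regions and lower at 24. The median difference was 0.074, against 0.187 for the 8 genes, and 0 of the 64 passed. Higher scores thus outnumbered lower ones here as well, but this was not tested and was not rerun under the alternatives. In covered length, 10 of the 14 genes had a negative difference and 4 a positive one.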

How the data were processed

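The authors deposited a peak list per library. Per the file headers each row gives a fold enrichment (a ratio over background), a p-value, an FDR and a pileup signal, called height here, and an interval length. The lists hold p-values up to 0.00987 and intervals of at least 200 bp. The submitters' processing notes name Trimmomatic 0.36, Bowtie2 2.2.6, Picard 2.8.2, MACS2 2.1.1, bedtools 2.25.0 and GRCh38; their settings, including any transposase shift, are not given in the sources used here.

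Chromosomes 1 to 22, X and Y were analysed. Regions are the union of the 6 lists (overlap of at least 1 bp). Gene spans and start windows came from RefSeq (GRCh38.p14). limma 3.58.1 (R 4.3.3; lmFit, eBayes with trend) was fitted over all regions called in 6 libraries, and over all genes with a peak in the window in at least 3 libraries, with Benjamini-Hochberg adjustment at 0.05. Both fits were also run on simulated data, drawn as independent normal values with known shifts. The outcome is not given here, and such data leave out deviations that a whole library shares. Single values used exact permutation tests (scipy 1.17.1). The members and gene lists were chosen with earlier results of these data known. Named were all 8 genes and, for each, the region at the start, the strongest shared region, the shared region with the smallest p and any region called in 1 group only; other regions were named after their values were seen. Alternatives changed the peak filter, list size, flank, ranking value, normalization, pseudocount and libraries.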

Additional observations from a re-analysis of the deposited data

How the results depend on the processing

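No alternative brought a region or gene of the 8 windows past the adjusted threshold. The 22 named results gave 292 values under the alternatives (lowest adjusted p 0.761, all limma with Benjamini-Hochberg adjustment). Depth is unknown, and with 3 libraries a group, small differences are not detectable. Of the 292 values, 254 kept their sign and 38 reversed it, and the cause was not tested. The 254 include the values with the replicate block, which cannot change sign in this balanced design. They also include the covered length values with no minimum number of libraries per gene, which repeated the main differences. Many of these values came from the same fit and the same libraries, so they are not independent.

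Counts moved as follows. At an FDR of at most 1e-05, 8 of 16 shared regions had a higher score in silenced cells and 0 regions were called in control libraries alone. The latter count was 1 at a height of at least 4 and 1 with a flank of 5 kb. With lists of equal size, 1 region was called in silenced libraries alone. Leaving out 1 library at a time gave 1 to 2 regions called in silenced libraries alone and 3 to 5 in control libraries alone. The 5 came without control replicate 1, and with a library left out the condition asks for fewer calls. Shared regions with a higher score in silenced cells then ran from 18 of 34 (52.9%) to 23 of 29 (79.3%). The former was without silenced replicate 3, the latter without silenced or control replicate 1.

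Rank score differences reversed as follows. At an FDR of at most 1e-05 they were −0.006 for the tallest AXL region and −0.1 for the lower end of CRIM1. Ranked by height they were −0.081 for AXL, −0.142 for the NT5E start and −0.161 for the lower end of CRIM1, and ranked by p-value −0.091, −0.086 and −0.165. Leaving out 1 library gave ranges of −0.080 to 0.047 for AXL, −0.514 to 1.164 for the F3 region, −0.304 to 0.049 for the strongest TGFB2 region, −0.070 to 0.140 for the lower end of CRIM1, −0.032 to 0.547 for the CCDC80 start and −0.108 to 0.089 for the region upstream of it. The F3 value turned negative without control replicate 3. The IGFBP3 start gave no value at an FDR of at most 1e-05, where it was not called in all libraries. In the other alternatives run it was negative, from −0.639 (ranked by p-value) to −0.407 (without control replicate 1).

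Log2 differences in covered length reversed to 0.101 (F3) at an FDR of at most 1e-05. At a height of at least 4 they were 0.061 (F3), 0.155 (CRIM1) and −0.036 (CCDC80). CRIM1 gave 0.029 with lists of equal size and 0.011 with median centring. A flank of 5 kb gave 0.025 (IGFBP3) and −0.141 (CCDC80), and a flank of 50 kb −0.142 (AXL), −0.112 (TGFB2) and 0.037 (IGFBP3). Leaving out 1 library gave −0.133 to 0.182 (AXL), −0.181 to 0.281 (TGFB2), −0.053 to 0.140 (NT5E), −0.149 to 0.133 (CRIM1), −0.349 to 0.043 (IGFBP3) and −0.062 to 0.153 (CCDC80). FJX1 gave no value at an FDR of at most 1e-05. In the other alternatives run it was negative, from −1.309 with lists of equal size to −0.48 with a pseudocount of 1000 bp, and from −1.031 to −0.794 without 1 library. F3 did not keep its sign. Its values ran from −1.146 with a flank of 5 kb to 0.101 at an FDR of at most 1e-05. In between lay −0.182 with a flank of 50 kb and −0.096 with lists of equal size. The difference in peaks per library ran from −9.83 to 2.5 and in covered length from −4.41 to 0.719 kb.

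Same-numbered libraries did not deviate together (correlations across regions of −0.00196, 0.00238 and −0.00829), so the numbers are not taken to pair them. With the replicate block, 0 regions and 0 genes of the 8 windows passed. In this balanced design the block leaves each difference as it was (21 regions with a higher score, −0.5 at the IGFBP3 start and −0.92 for FJX1) and changes its error alone, so the equal differences say nothing about stability.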
